A study of Homo sapiens with 2 samples.

Results

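The mature miRNAs hsa-miR-320a, hsa-miR-320b, hsa-miR-320c, hsa-miR-320d, hsa-miR-320e and hsa-miR-484 were chosen by name, 6 of the 2588 mature miRNA names counted in each library. Small RNAs were sequenced from eluates of amylose resin that had been incubated with lysate of MDA231 (MDA-MB-231), an established line of triple-negative breast cancer cells. The bait library came from resin carrying lncRNA MACC1-AS1-MS2, the long non-coding RNA MACC1-AS1 transcribed in vitro and fused to MS2 hairpins. The no-bait library came from resin with the RNA substrate given as None. Both used parental MDA231 cells and a fusion of maltose-binding protein with MS2 coat protein to hold the RNA. The question was which miRNAs of the lysate bind to MACC1-AS1. With no unrelated RNA on the control resin, MACC1-AS1, the MS2 hairpins and the presence of any RNA on the resin cannot be told apart. There was 1 library per group and hence no replicate to set a difference against, and every interval given here is a 95% interval for counting error only.

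Most miRNAs are cut first in the nucleus by the Drosha complex, which frees a hairpin from a long transcript, and then in the cytoplasm by Dicer. The precursors of miR-320 and miR-484 are known, mainly from mouse cells, to skip the first cut. They are transcribed directly as short hairpins with a methylguanosine cap, leave the nucleus through the exportin XPO1 and go straight to Dicer. The libraries count mature ends only, so the route by which these miRNAs were made was not measured.

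Sequences of 5 of the 6 names were matched in RefSeq (GRCh38.p14), all but that of miR-320a, which holds most of the family's counts. Statements below on mature sequence, seed or pairing leave out miR-320a, and its likeness to the other members was not examined. The 5 sequences are printed because the results turn on how alike these miR-320 members are and how unlike them miR-484 is. Capitals mark the seed, bases 2 to 8, which directs pairing with targets.
miR-320b: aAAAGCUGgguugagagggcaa
miR-320c: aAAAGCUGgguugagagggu
miR-320d: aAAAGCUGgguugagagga
miR-320e: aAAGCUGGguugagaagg
miR-484: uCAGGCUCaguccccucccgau

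miR-320b, miR-320c and miR-320d share the seed aaagcug and the first 18 bases. Counted from the 5′ end of miR-320b, the first difference is C20U in miR-320c and G19A in miR-320d. miR-320e begins 1 base further along the same run, so its seed is aagcugg, and it carries G17A at the matching position of miR-320b. The longest run of bases that miR-484 shares with any of these 4 is 3 bases, and its seed is caggcuc. A read trimmed to 18 bases matches miR-320b, miR-320c and miR-320d equally. The sources used here do not state how such reads were counted. In these libraries hsa-miR-199a-3p and hsa-miR-199b-3p, whose mature sequences are the same, both had 176 counts with bait and 92 without. All 17 pairs of detected names with the same RefSeq sequence had the same counts, but they are not 17 separate cases. Besides miR-199a-3p with miR-199b-3p and miR-365a-3p with miR-365b-3p, all come from a single group of names with the same sequence. Each name of that group, such as miR-518e-5p and miR-519a-5p, had 14 counts with bait and 0 without. A read that matches several miR-320 members may thus stand under each of them, so values of the single miR-320 members are uncertain and the family is also given as a sum.

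The start shift of miR-320e is visible in the hairpins, here with the annotated mature miRNA in capitals.
MIR320B1: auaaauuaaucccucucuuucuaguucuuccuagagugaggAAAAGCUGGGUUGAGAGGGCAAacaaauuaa
MIR320E: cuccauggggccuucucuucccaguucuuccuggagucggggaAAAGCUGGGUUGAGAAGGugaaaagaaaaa

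The family comes from several loci. MIR320B1 (chr1:116671746-116671817, plus strand) overlaps no other GENCODE gene. MIR320B2 (chr1:224257040-224257110, minus strand) lies in an intron of NVL on the same strand, 11023 bases after the nearest start of an overlapping transcript. MIR320C1 (chr18:21683518-21683589, plus strand) and MIR320C2 (chr18:24321675-24321746, plus strand) lie in introns of ABHD3 and OSBPL1A, which run on the opposite strand. MIR320D1 (chr13:40727816-40727887, minus strand) and MIR320D2 (chrX:140926160-140926231, minus strand) overlap no other gene. MIR320E (chr19:46709282-46709354, minus strand) is in an intron of PRKD2 on the same strand, 4669 bases after the nearest start of an overlapping transcript. MIR320A is on chromosome 8, on the minus strand, 61 bases from the start of POLR3D, an RNA polymerase III subunit gene that runs the other way. MIR484 (chr16:15643294-15643372, plus strand) starts 27 bases after the first base of an NDE1 transcript, in a UTR of that gene. The mature miRNA is on the 3p arm of the 7 miR-320 hairpins with a sequence and on the 5p arm of MIR484. miR-320b, miR-320c and miR-320d each have 2 hairpins with an identical mature sequence, whose counts cannot be separated.

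The bait library held 1047269 miRNA counts and the no-bait library 269716, 3.88-fold apart in depth, and the shallower no-bait library limits most ratios. RPM is the share of the library's miRNA counts, scaled to 1000000. Of 7 miRNAs listed as typical of this line, miR-100-5p had 296361 RPM with bait and 452802 RPM without, and miR-21-5p had 167088 and 97328 RPM. Others on this list moved further and in both directions. With bait miR-125b-5p was 11.4-fold higher (53091 against 4672 RPM), miR-29a-3p was also higher (2202 against 367.1 RPM) and miR-222-3p was 5.01-fold lower (8028 against 40198 RPM). miR-221-3p had 5596 RPM with bait and 4405 RPM without. miR-31-5p had only 9 counts with bait and 4 counts without, a level that does not bear out its place on the list.

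Markers of other cell types held small shares of both libraries. The 6 epithelial miRNAs known to be low in this line together made up 0.0181% of the bait library and 0.0111% of the no-bait library. miR-200b-3p gave 144 of their 190 counts with bait and 28 of their 30 without. miR-200c-3p, miR-200a-3p and miR-429 had 20, 18 and 8 counts with bait and at most 1 without, and miR-141-3p and miR-205-5p had 0 in both. The 7 blood cell miRNAs made up 0.0432% of the bait library and 0.0864% of the no-bait library, most of it miR-486-5p. That miRNA had 386 counts with bait (368.6 RPM) and 214 without (793.4 RPM), 2.15-fold lower with bait, which is the direction of the miR-320 family below. miR-142-5p had 45 counts with bait and 9 without, miR-142-3p had 17 and 0, and miR-451a had 4 and 10. miR-144-3p, miR-150-5p and miR-223-3p had 0 counts in both libraries. The 5 liver, muscle and neural miRNAs held 0.00229% with bait and 0.00704% without, with 0 counts of miR-124-3p in both. The part of these cell types in the results below was not tested.

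The miR-320 family took a smaller share of the bait library than of the no-bait library, while miR-484 took a larger one. A miRNA was tested from a summed count of 30 upwards. It was called lower at a ratio of bait over no-bait RPM of at most 0.5, and higher at a ratio of at least 2, where the interval excluded 1. Of the 6 members 5 were tested, 4 of them were lower and 1 was higher. Over all 231 tested miRNAs, 26.8% were called lower and 39.4% higher. Of all calls 59.5% were higher, and 72.2% with DESeq2 size factors. Only members with enough counts in the 2 libraries could be called, and miR-320e could not. The median log2 ratio was -2.05 over the 4 tested miR-320 members and 0.55 over all tested miRNAs. The amount of RNA that each resin retained was not measured, and a smaller share need not mean a smaller amount.

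hsa-miR-320a, the main product of the family, had 507 counts with bait and 473 counts without. Its level was 484.1 RPM with bait (442.9 to 528) and 1754 RPM without (1599 to 1919). The intervals lie well apart, and the ratio was 0.276 (0.243 to 0.314), which is 3.62-fold lower with bait. Raw counts in the 2 libraries were nearly equal, and the difference is one of shares, given the 3.88-fold deeper bait library. In the authors' deposited table miR-320a had a log2 fold change of -1.86 and a p-value of 0.0120, from a test that is not named there.

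hsa-miR-320b had 57 counts with bait (54.4 RPM) and 69 counts without (255.8 RPM). Its ratio was 0.213 (0.147 to 0.307), 4.70-fold lower with bait. hsa-miR-320c had 29 counts with bait (27.7 RPM) and 41 counts without (152.0 RPM). Both were clearly below their no-bait level, and miR-320c had the lowest ratio of the tested members at 0.182 (0.109 to 0.300), 5.49-fold lower. The authors' deposited table gave log2 fold changes of -2.23 with p = 0.00439 for miR-320b and -2.46 with p = 0.00278 for miR-320c.

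hsa-miR-320d had 16 counts with bait (15.3 RPM) and 15 counts without (55.6 RPM), just enough to be tested. Its ratio of 0.275 (0.127 to 0.597) was 3.64-fold lower with bait, but the upper bound lies above 0.5. In the authors' deposited table its p-value was 0.0668, so it did not pass 0.05 there. hsa-miR-320e had 5 counts with bait (4.77 RPM) and 1 count without (3.71 RPM). Its ratio of 1.29 has an interval of 0.144 to 60.9, and a difference in either direction was not detectable at this depth.

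Summed, miR-320a to miR-320e held 614 counts with bait, 0.0586% of the library (0.0541% to 0.0635%), and 599 counts without, 0.222% (0.205% to 0.241%). The family sum was therefore 3.79-fold lower with bait (3.38 to 4.25). The sum does not depend on how reads were divided among the members if each was counted under 1 name only. If shared reads were counted under each matching name, the sum holds them several times and its interval is too narrow. Without miR-320a the other members held 107 counts with bait and 126 without, 4.57-fold lower (3.51 to 5.97).

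hsa-miR-484, which is known for regulating mitochondrial fission in rodent heart muscle cells, went the other way. It had 246 counts with bait and 15 counts without. Its level was 234.9 RPM with bait (206 to 266) and 55.6 RPM without (31.1 to 91.7). The intervals are far apart, and the ratio was 4.22 (2.51 to 7.66). In the authors' deposited table its log2 fold change was 2.08 with p = 0.00378. There, 2.16% of all 2588 names had p under 0.05 with a negative fold change and 3.36% with a positive one, most names having no counts at all. The authors' deposited table rests on these same counts and is no independent check.

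**Figure D1:**
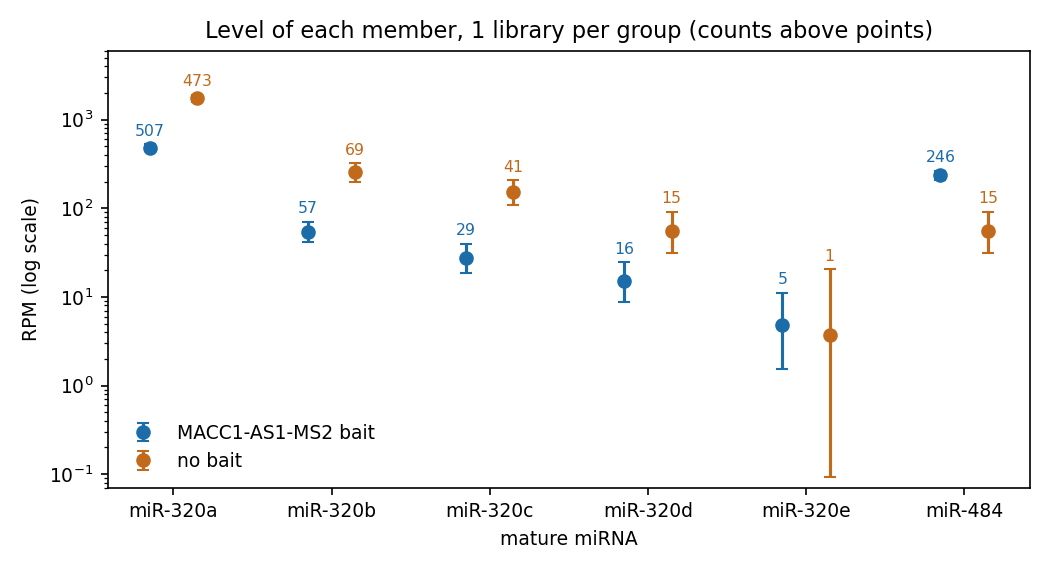
Level of each member in RPM on a log scale, with the bait library left and the no-bait library right in each pair; bars are exact 95% counting intervals and the numbers are raw counts. The 4 miR-320 members from a to d lie lower with bait, miR-484 lies higher (234.9 against 55.6 RPM), and the wide bars of miR-320e overlap.

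The order of levels differed between the libraries in the place of miR-484. With bait the order was miR-320a, miR-484, miR-320b, miR-320c, miR-320d and miR-320e. Neighbours in this order differed beyond counting error except miR-320c and miR-320d, whose count ratio was 1.81 (0.952 to 3.57). Without bait the order was miR-320a, miR-320b, miR-320c, then miR-320d and miR-484 with 15 counts each, then miR-320e, and all neighbours other than the tied pair differed beyond counting error. miR-484 thus had 4.32 times the count of miR-320b with bait (3.22 to 5.86), and fewer counts than miR-320b without.

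The make-up of the miR-320 family was similar in both libraries. miR-320a held 82.6% of the family's counts with bait (79.3% to 85.5%) and 78.96% without (75.5% to 82.2%). miR-320b held 9.28% with bait and 11.5% without, and miR-320c 4.72% and 6.84%. miR-320d held 2.61% and 2.50%, and miR-320e 0.814% and 0.167%. For every member the intervals of the 2 libraries overlapped. If shared reads were counted under each matching name, the shares of those members are tied to each other and these intervals do not hold.

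Ratios were compared between members through the odds ratio of their counts, which does not depend on the scaling between libraries. All 10 pairs of the 5 tested members were compared. Within the miR-320 family, whose members may share reads, 0 of 6 pairs had an interval that excluded 1. The widest apart by value was miR-320a over miR-320c, with a ratio of ratios of 1.51 (0.902 to 2.57), so a difference of up to 2.57-fold between them is within counting error. miR-484 differed from each of the 4 miR-320 members, also with intervals widened to 99.5% for the 10 pairs. Its ratio was 15.3 times that of miR-320a (8.91 to 28.1), 19.6 times that of miR-320b (10.2 to 39.8), 22.8 times that of miR-320c (10.9 to 50.3) and 15.1 times that of miR-320d (5.79 to 40.2). Against the summed family it was 16.0 times as high (9.36 to 29.3).

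The members were set beside miRNAs of like abundance. The 3 tested miRNAs next above miR-320a in no-bait RPM were miR-99a-5p, miR-7641 and miR-146a-5p, and the 3 next below were miR-221-5p, miR-4485-3p and miR-27a-5p. Of these 6, miR-7641, miR-4485-3p and miR-27a-5p were lower with bait and 0 were higher. miR-7641 and miR-4485-3p are on the list, given below, of entries that overlap other small RNAs. Within 2-fold of the no-bait RPM of miR-320a, 11 of 25 other tested miRNAs were lower, and 7 had a ratio at or below its own. This band also holds miR-1246 and miR-664a-5p of the same list. A lower ratio at this level of abundance was thus not particular to miR-320a, though such entries are among the miRNAs it is set beside. For miR-320b 7 of 43 others in such a band had a ratio at or below its own, and for miR-320c 15 of 54. For miR-320d it was 7 of 58. At the low no-bait counts of its band, the minimum summed count admits a miRNA only with enough bait counts, which removes low ratios in advance. The 7 of 58 therefore cannot show how common a ratio like that of miR-320d is at its abundance.

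Around miR-484 the 3 tested miRNAs next above were miR-937-3p, miR-4746-5p and miR-769-5p, and the 3 at or next below were miR-185-5p, miR-7706 and miR-328-3p, all with 15 or 16 counts without bait. With bait they had between 26 counts for miR-937-3p and 212 counts for miR-769-5p, fewer than the 246 counts of miR-484. miR-769-5p was 3.41-fold higher (2.05 to 6.08) and miR-185-5p 2.87-fold higher (1.69 to 5.24), and miR-937-3p was lower with a ratio of 0.419 (0.216 to 0.835). Within 2-fold of its no-bait RPM, 19 of 58 others were higher, and 50 of 58 had a ratio at or below that of miR-484. This is also the band of miR-320d, where the minimum summed count removes low ratios in advance. Both counts thus describe the tested miRNAs of the band only, not all miRNAs of like abundance. Among all tested miRNAs 49 had a higher ratio than miR-484, and 27 a lower ratio than miR-320c.

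**Figure D2:**
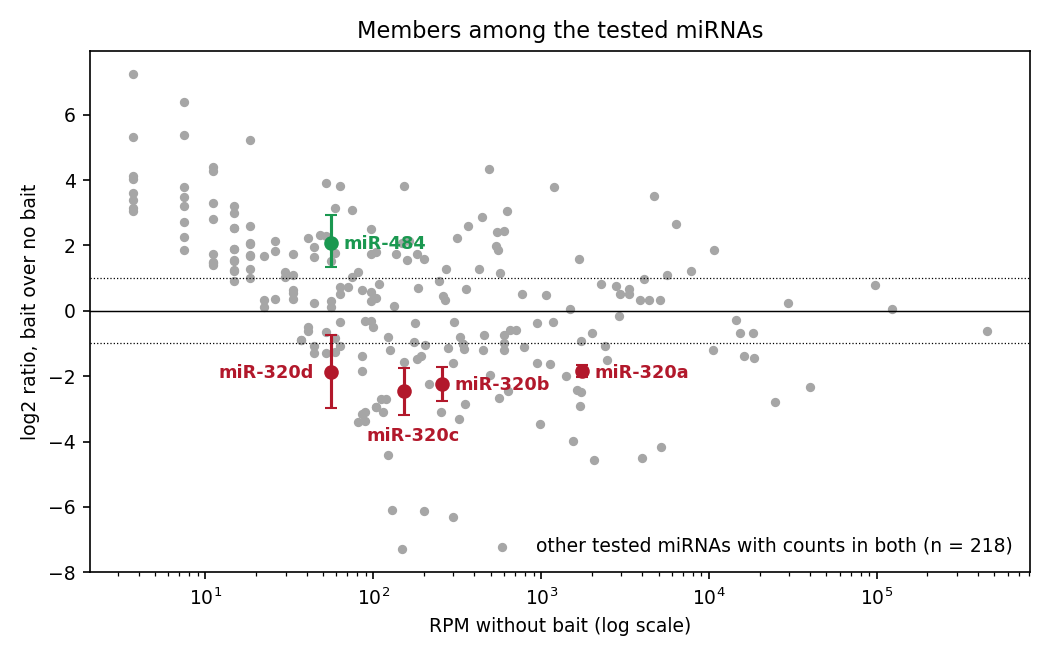
Log2 ratio of bait over no bait against RPM without bait on a log scale, for the 5 tested members with 95% counting intervals and for 218 other tested miRNAs (grey); dotted lines mark 2-fold, and 8 tested miRNAs at 0 counts without bait are not drawn. The 4 miR-320 points lie together between -2.46 and -1.86 within a wide cloud, and miR-484 lies at 2.08; the empty lower left corner follows from the minimum of 30 counts.

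The 5 tested miRNAs outside the group with a log2 ratio nearest the median of the tested members (-1.86) were miR-125a-3p, miR-671-3p, miR-1246, miR-532-5p and miR-99b-3p. They ranged from -1.98 for miR-1246 to -1.61 for miR-99b-3p, and all 5 were called lower. This likeness is a distance between single values from 2 libraries.

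Mirtrons are another class of hairpins that reach Dicer without Drosha, being released by splicing of short introns. A list of 33 mature names from such hairpins was named from memory and not checked against a source. Of these 33, 25 had 0 counts with bait and 21 had 0 counts without. The 2 tested names on the list, miR-3605-3p and miR-5010-3p, are both ones whose place among mirtrons is uncertain. Of these, miR-3605-3p was lower, with 14 counts with bait and 31 counts without and a ratio of 0.116 (0.0572 to 0.225). miR-5010-3p had 36 and 4 counts and a ratio of 2.32 (0.831 to 8.96), a higher call only with DESeq2 size factors. miR-877-5p, a well known mirtron product, had 7 counts with bait and 1 without. The median log2 ratio of the 2 tested names was -0.95, beside 0.55 over all tested miRNAs.

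Other features of the tested members with a sequence, which leave out miR-320a, were set beside the 203 tested miRNAs with a RefSeq sequence, 87.9% of the 231. miR-320b and miR-484 are both 22 bases long, the median length, and were called in opposite directions. miR-320c has 20 bases and miR-320d 19. Among tested miRNAs of at most 20 bases that are not members, 13 of 14 were lower and 1, miR-548av-3p, was higher. The median log2 ratio of these 14 was -2.96, and 6 of them belong to a list of entries that overlap other small RNAs. Among the 8 that do not, 7 were lower. Of 185 longer non-members 35 were lower and 79 higher, with a median log2 ratio of 0.78. The limit of 20 bases was chosen after the lengths of miR-320c and miR-320d were seen, and the lengths are annotated ones, since the lengths of the reads were not analysed here.

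**Figure D3:**
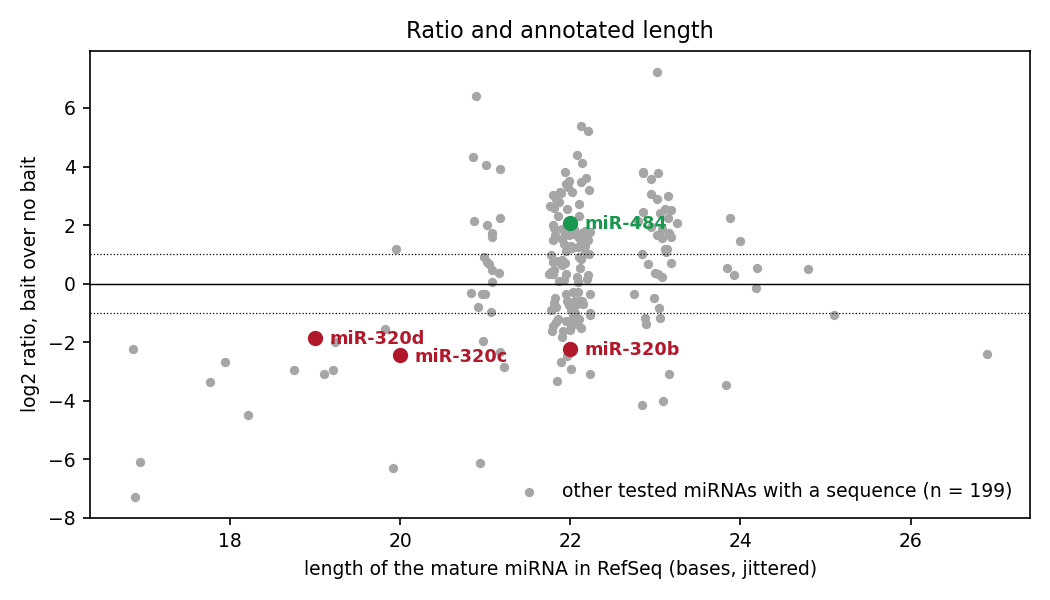
Log2 ratio of bait over no bait against annotated mature length in bases (jittered sideways for the grey points), for 4 members and 199 other tested miRNAs with a RefSeq sequence; dotted lines mark 2-fold. miR-320c and miR-320d stand among short names that are nearly all lower, while miR-320b (-2.23) and miR-484 (2.08) stand at 22 bases, where both directions occur.

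GC content was 50.0% for miR-320b and miR-320c, 47.4% for miR-320d and 63.6% for miR-484, against a median of 47.8%. Among the 203 miRNAs, Spearman's rho of GC content with the log2 ratio was -0.30 and that of length was 0.24, both descriptions over miRNAs of the same 2 libraries. Of 33 other tested miRNAs with at least 60% GC, 13 were lower and 8 higher, while miR-484 in this range was higher. The 3 tested miR-320 members with a sequence begin with A, as do 52 other tested miRNAs, of which 17 were lower and 17 higher. miR-484 begins with U, as do 99 others, of which 18 were lower and 47 higher.

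Markers of RNA fragments moved in the same direction as the miR-320 family. Of 17 listed entries known to overlap other small RNAs, such as ribosomal, transfer or small nuclear RNAs, 9 were tested and 9 were lower. Their log2 ratios ran from -4.58 for miR-7641 to -1.98 for miR-1246. Over all 231 tested miRNAs 26.8% were lower. The list was chosen with earlier results of these data known, so its count is a description and no independent support. The 17 held 0.108% of counts with bait (0.101% to 0.114%) and 1.08% without (1.04% to 1.12%), and miR-1275 was at 0 counts in both. The family sum of miR-320 was 3.79-fold lower with bait and the sum of these entries 10.0-fold lower. The part of RNA fragments in the miR-320 result was not tested. With these entries left out of the library totals, miR-320a was 3.66-fold lower.

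Pairing with MACC1-AS1 was searched for the members with a sequence, so not for miR-320a. The annotated transcript of 639 bases (GENCODE version 29) was used, which need not be the isoform of the bait. The complement of seed bases 2 to 8 is CAGCTTT for miR-320b, miR-320c and miR-320d, CCAGCTT for miR-320e and GAGCCTG for miR-484, and none of the 3 occurs in the transcript. These motifs are found on the transcribed strand of 7.95%, 8.29% and 8.94% of 10912 annotated lncRNA transcripts of 500 to 800 bases. The shorter motif CAGCTT, which is contained in the first and second of these and complements bases 3 to 8 of miR-320b, miR-320c and miR-320d and bases 2 to 7 of miR-320e, occurs 1 time. It lies at bases 475 to 480, chr7:20153367-20153372 on the plus strand, and is shown in capitals with its surroundings because it is the one seed match found.
MACC1-AS1: aagtgaagaataCAGCTTctgctctcacca

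CAGCTT is held by 24.4% of the same lncRNA transcripts. The 6-base complements AGCCTG and GAGCCT of the seed of miR-484, held by 31.9% and 20.3% of them, do not occur in MACC1-AS1, nor does AGCTTT, the complement of bases 2 to 7 of miR-320b, held by 19.7%. The best duplex that RNAduplex predicted with the transcript was -20.5 kcal/mol for miR-320b, -18.1 for miR-320c, -15.9 for miR-320d and -11.4 for miR-484, against a median of -15.3 over the 203 miRNAs. By predicted duplex energy miR-320b ranked 12 of 203 from the strongest and miR-484 ranked 185. Of these 4, miR-484 had the weakest predicted duplex and miR-320b the strongest, and miR-320b, miR-320c and miR-320d are near-identical. Across all 203 miRNAs Spearman's rho of duplex energy with the log2 ratio was 0.24, weaker duplexes going with higher ratios. That is a description over miRNAs of the same libraries. The part of pairing with MACC1-AS1 in the ratios was not tested.

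Other miRNAs with these seeds were looked for among the 2281 of 2588 names with a RefSeq sequence, and 3 were found. miR-4429, which shares the seed of miR-320b, had 0 counts with bait and 1 count without. miR-3155a and miR-3155b, which share the seed of miR-484, had 0 counts in both libraries, which allows up to 2.86 RPM with bait and 11.1 RPM without.

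The directions of the tested members held under each scaling tried. miR-320a ranged from 2.70-fold lower with DESeq2 size factors to 4.00-fold lower when the most abundant miRNAs were left out of the totals. miR-320c ranged from 4.10-fold to 6.07-fold lower under the same settings. miR-484 was 5.66-fold higher with DESeq2 size factors and 3.82-fold higher with the reduced totals.

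**Figure D4:**
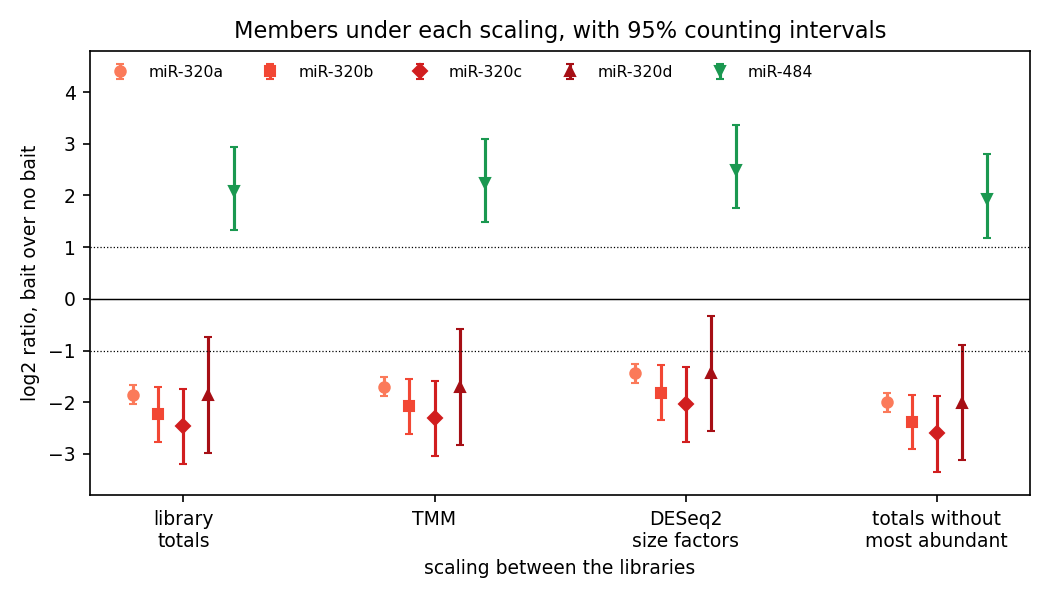
Log2 ratio of bait over no bait for the 5 tested members under 4 scalings between the libraries, with 95% counting intervals; dotted lines mark 2-fold. The 4 miR-320 members lie below -1 and miR-484 above 1 under each of them, while the interval of miR-320d crosses -1 throughout.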

How the data were processed

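Small RNA libraries of 1 bait and 1 no-bait eluate were analysed. For each, the authors deposited a whole-number count per mature miRNA name and a normalized value, an RPM, which equalled the count over the library's total, scaled to 1000000, within 0.00994 RPM. Per the submitters' processing notes BWA was used. The sources used here do not state the miRNA reference, the trimming or the handling of multiply matching reads. The authors' deposited table adds a log2 fold change and a p-value from an unnamed test.

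Counts were divided by the library total. Ratios have exact conditional binomial 95% intervals, and shares and RPM have exact Clopper-Pearson 95% intervals (scipy 1.17.1), and all cover counting error only. Pairs of members were compared by conditional odds ratios. In counts simulated with 4-fold changes, 97.0% of 67 changed and 0.599% of the unchanged among 234 tested miRNAs were called. The simulation held counting error only and no variation between libraries, so it gives no error rate for the calls made here. Scalings by edgeR 4.0.16 and DESeq2 1.42.0 factors, reduced totals, minimums of 10 and 100 counts, no filter, deposited RPM and a stricter bound were alternatives. Duplexes were predicted with ViennaRNA 2.7.2. In ratios, 3 counts stood in for 0 where a miRNA had 0 counts in 1 library. Loci come from RefSeq GRCh38.p14 and GENCODE version 29 (GRCh38).

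The members and lists were chosen with earlier results of these data known. Named are all members, the 3 tested miRNAs on either side of miR-320a and miR-484 in no-bait RPM, the 5 nearest the members' median ratio, tested names of the mirtron list and the most abundant miRNA. miRNAs that share a seed or serve as markers are named by that property, and the others after their values were seen. The mirtron miR-877-5p and the short miR-548av-3p are among these.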

Additional observations from a re-analysis of the deposited data

How the results depend on the processing

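The median log2 ratio of all tested miRNAs shifted by 0.15 with TMM factors, 0.42 with DESeq2 size factors and -0.14 with the 7 most abundant names left out of the totals. The calls of the 5 tested members, 4 lower and 1 higher, held under these scalings, with the deposited RPM, with a minimum of 10 counts, with no count filter, and with totals without the entries overlapping other small RNAs, a setting chosen after the data were seen. With a minimum of 100 counts 2 members were lower, since miR-320c and miR-320d were no longer tested. With an interval bound past 2-fold 3 were lower, without miR-320d, and 1, miR-484, was higher. Of all tested miRNAs 18.2% were lower under this bound and 27.7% higher. Of the listed mirtron names, 1 was higher with DESeq2 size factors, 2 were lower with no count filter, and 0 were lower at 100 counts, where 0 were tested. All miRNAs counted 37 lower and 59 higher of 146 at 100 counts, and 103 lower and 95 higher of 715 with no count filter. Of the alternative values, 92 were classed as the same as in the main setting, 3 as stronger and 4 as weaker. Counts classed as the same could still move. Of all 231 tested miRNAs, 62 were lower and 91 higher in the main setting, and 44 lower and 114 higher with DESeq2 size factors. No paired analysis was possible because each group held 1 library. The 15 counts of miR-320d and of miR-484 without bait limit the precision of their ratios most.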
